A study of Mus musculus with 3 samples.

Results

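The genes *Ltf*, *Camp*, *Ngp*, *Lcn2*, *Mmp8*, *Mmp9*, *Chil3*, and *Cd177*, which encode proteins of the specific and gelatinase granules of neutrophils, were followed across 3 single-cell libraries. These 8 genes were taken by symbol out of 27998 in the files. The libraries were made from male C57BL/6J mice at 10 weeks of age, 3 days after a burn with Achilles tenotomy, an injury after which heterotopic bone forms in the tendon. There was 1 library for each of 3 sites, with no uninjured library among them. Bone marrow was flushed and freed of red blood cells, blood was spun on a Ficoll gradient (a step that recovers mononuclear cells and only part of the neutrophils) and freed of red blood cells, and tissue of the tendon injury site was digested enzymatically at 37 °C. Cells were unsorted, and how many mice were pooled per library is not stated in the sources used here. Site, preparation, and library therefore cannot be told apart, and no test between sites was possible.

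Neutrophils fill their granules in sequence as they mature in the bone marrow. Azurophil (primary) granule proteins are made first, at the promyelocyte stage, specific (secondary) granule proteins follow in myelocytes and metamyelocytes, and gelatinase (tertiary) granule proteins come last, in band cells. Much of this transcription stops before the cell leaves the marrow, while the stored protein stays until it is released at a site of injury or infection, so that a transcript level is not a protein level. Among the genes described here, *Ltf* encodes lactoferrin, an iron-binding protein, *Camp* the cathelicidin antimicrobial peptide, *Ngp* neutrophilic granule protein, and *Lcn2* lipocalin 2, which binds bacterial siderophores. *Mmp8* encodes neutrophil collagenase, *Mmp9* gelatinase B, *Chil3* the chitinase-like protein Ym1, and *Cd177* a surface glycoprotein held in specific granules.

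The 8 genes lie on 4 chromosomes of GRCm38 (GENCODE M21 positions). *Camp* (chr9:109847379-109849617, minus strand), *Ngp* (chr9:110419747-110423012, plus strand), and *Ltf* (chr9:111019271-111042767, plus strand) stood within 1.195 Mb of each other. *Mmp8* lies elsewhere on the same chromosome (chr9:7558456-7568485, plus strand), and the other members are *Lcn2* (chr2:32384633-32388252, minus strand), *Mmp9* (chr2:164940780-164955850, plus strand), *Chil3* (chr3:106147554-106167564, minus strand), and *Cd177* (chr7:24743983-24760311, minus strand). C/EBP family factors, C/EBPε above all, are known to drive specific granule genes, so the 250 bases before each RefSeq start were searched for the letters TTNCNNAA on both strands. Starts were found for 7 of the 8 members, and *Mmp9* was not among them. The number of matches was 3 in *Ngp*, 3 in *Chil3*, 2 in *Ltf*, 2 in *Mmp8*, 1 in *Lcn2*, 1 in *Cd177*, and 0 in *Camp*, and 36.8% of all 32851 promoters in the table held at least 1. Promoters of 4 members with more than 1 match and of *Camp*, the member with none, are shown from 5′ to 3′ (RefSeq, GRCm38.p6), with the matching letters in capitals and any bases that GENCODE M21 places in an exon left out at the end.
Ltf, chr9:111019042-111019270 (+ strand): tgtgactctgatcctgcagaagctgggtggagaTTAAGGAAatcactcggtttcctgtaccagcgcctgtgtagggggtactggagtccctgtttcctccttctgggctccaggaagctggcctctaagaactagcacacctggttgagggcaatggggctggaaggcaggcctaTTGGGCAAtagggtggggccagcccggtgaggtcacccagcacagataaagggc
Ngp, chr9:110419558-110419746 (+ strand): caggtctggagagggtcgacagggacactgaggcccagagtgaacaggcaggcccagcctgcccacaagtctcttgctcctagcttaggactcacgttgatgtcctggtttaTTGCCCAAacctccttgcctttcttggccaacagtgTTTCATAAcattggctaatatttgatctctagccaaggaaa
Mmp8, chr9:7558179-7558428 (+ strand): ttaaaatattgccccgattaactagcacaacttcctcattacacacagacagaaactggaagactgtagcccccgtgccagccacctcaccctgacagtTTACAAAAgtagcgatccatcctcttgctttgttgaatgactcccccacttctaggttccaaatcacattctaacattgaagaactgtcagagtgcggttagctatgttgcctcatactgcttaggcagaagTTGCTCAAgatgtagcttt
Chil3, chr3:106167565-106167814 (- strand): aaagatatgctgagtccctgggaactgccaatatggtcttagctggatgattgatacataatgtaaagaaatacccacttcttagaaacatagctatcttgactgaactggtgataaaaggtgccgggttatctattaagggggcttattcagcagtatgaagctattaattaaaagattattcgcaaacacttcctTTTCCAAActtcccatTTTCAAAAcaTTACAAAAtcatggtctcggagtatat
Camp, chr9:109849618-109849706 (- strand): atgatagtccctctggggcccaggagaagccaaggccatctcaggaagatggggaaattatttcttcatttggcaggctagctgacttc
The third match of *Ngp*, 11 to 4 bases before its RefSeq start, falls in the bases left out. The searched bases of *Lcn2* (chr2:32387740-32387989) lie within its GENCODE M21 gene, so all its matches stand downstream of the GENCODE 5′ end. The letters GAGGAA (bound by ETS factors such as PU.1) stood in 23.3% of all promoters and among the members in *Lcn2*, *Cd177*, *Mmp8*, and *Ltf*, and GGG and CC set apart by 5 bases (the core of an NF-κB site) stood in 45.8% of all promoters and in *Lcn2*, *Chil3*, *Cd177*, and *Ltf*. The NF-κB matches of *Ltf* overlapped one another, as did those of *Cd177*. A match is a description of letters and not a measured binding site.

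After filters, 1813 bone marrow, 2146 blood, and 4780 tendon cells remained, from libraries of 22542581 to 90621052 unique molecular identifiers (UMIs, counts of captured transcripts). No more than 6 barcodes were shared between any pair of libraries. Cells with at least 5% of their UMIs from *S100a8* and *S100a9*, the calprotectin genes of neutrophils, were taken as S100-high, and numbered 1194 (65.9%) for bone marrow, 388 (18.1%) for blood, and 453 (9.48%) for the tendon. Of these, 1182, 379, and 440 fell in clusters that carried neutrophil or neutrophil progenitor markers. S100-high cells with at least 100 CPM (UMIs of a gene per 1000000 UMIs) of *Cxcr2*, the chemokine receptor that mature neutrophils gain, were called Cxcr2-high, and the rest Cxcr2-low. In that order of sites, 776, 379, and 396 cells were Cxcr2-high and 418, 9, and 57 were Cxcr2-low. Both gates cut a continuous range rather than separate types. Near the S100 cut, 42, 17, and 62 cells held 2 to 5% and 36, 9, and 93 cells held 5 to 10%, and *Cxcr2* was between 50 and 200 CPM in 283, 7, and 8 S100-high cells. Levels below are in CPM over all UMIs of a group of cells, with intervals that cover counting error only, and a gene was counted as higher or lower in a comparison at a difference of at least 2-fold. Depth fell from site to site, with a median of 18347 UMIs per Cxcr2-high cell of bone marrow, 8633 of blood, and 4013 of the tendon, and the S100 share of the UMIs of these cells fell with it (39.0%, 31.3%, and 18.9%).

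In Cxcr2-high cells, transcripts of the specific granule genes *Ltf*, *Camp*, and *Ngp* and of *Chil3* were abundant in bone marrow, 8.95-fold to 13.5-fold lower in blood, and lower again over all such cells of the tendon injury site, where *Chil3* alone of these 4 stayed within 2-fold of blood. *Mmp9* stood apart, at nearly the same level in bone marrow and tendon over all such cells, though not at like *Cxcr2* levels. Together the 8 genes took 8.48% of all UMIs of Cxcr2-high bone marrow cells, 1.60% of those of blood cells, and 0.737% of those of tendon cells.

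*Ltf* reached 7911 CPM in bone marrow (95% interval 7866 to 7955), against 884 CPM (854 to 915) for blood cells and 276 CPM (253 to 301) for tendon cells. *Camp* was at 26532, 2266, and 787 CPM in the same order, and *Ngp* at 27469, 3028, and 974 CPM. Thus *Ltf*, *Camp*, and *Ngp* each ranked bone marrow above blood above tendon over the summed UMIs of these cells. The intervals do not measure the spread among cells. In blood and in the tendon few cells held most of these UMIs, and the rank of blood over tendon depended on the cells compared, as described below. The log2 ratio of blood to bone marrow was -3.16 for *Ltf* (-3.21 to -3.11), -3.55 for *Camp* (-3.58 to -3.52), and -3.18 for *Ngp* (-3.21 to -3.15). Against bone marrow, the tendon was lower by 28.6-fold for *Ltf*, 33.7-fold for *Camp*, and 28.2-fold for *Ngp*.

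*Lcn2*, a gene that inflammatory signals also induce in many tissues, had a shallower gradient, with 15503 CPM in bone marrow (15441 to 15565), followed by 5902 CPM in blood (5824 to 5982) and 2947 CPM at the tendon (2869 to 3027). Its level was 2.63-fold lower in blood than in bone marrow and 5.26-fold lower in the tendon than in bone marrow. *Chil3* had the largest difference between blood and bone marrow of the 8 members, with 3117 CPM in bone marrow and 231 CPM in blood (13.5-fold lower), and stood at 156 CPM in the tendon. *Cd177* was lower in both steps, at 996, 337, and 130 CPM.

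The metalloproteinase genes behaved otherwise. *Mmp8* was at 1866 CPM in bone marrow (1845 to 1888) and 1538 CPM in blood (1498 to 1579), less than 2-fold apart, and at 710 CPM in the tendon (672 to 750). *Mmp9* reached 1395 CPM (1376 to 1414) in bone marrow cells, 1843 CPM (1799 to 1888) in blood cells, and 1390 CPM (1336 to 1445) in tendon cells. Tendon and bone marrow thus differed by a log2 ratio of -0.01 (-0.07 to 0.05), and it was the member with the smallest difference in each step but one, since *Mmp8* differed less between blood and bone marrow. At like *Cxcr2* levels the sites differed more. Tendon cells held more *Mmp9* than bone marrow cells at 100 to 500 CPM of *Cxcr2* (1282 against 847 CPM). They held less at 500 to 1000 CPM (1225 against 2206 CPM), 1000 to 2000 CPM (1544 against 2338 CPM), and 2000 CPM or more (1500 against 2214 CPM).

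**Figure D1:**
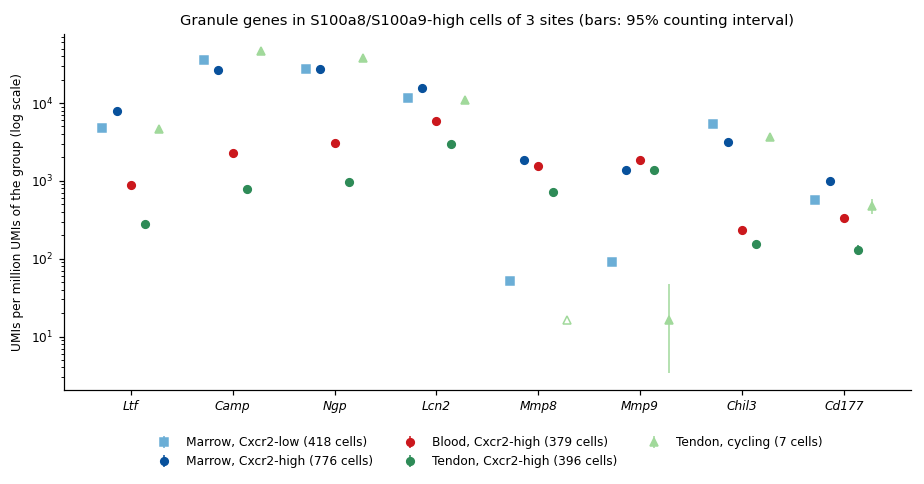
Level of each member in CPM over the UMIs of the group (log axis), for Cxcr2-low and Cxcr2-high S100-high cells of bone marrow, Cxcr2-high cells of blood and tendon, and the 7 cycling S100-high cells of the tendon, with bars for the 95% counting interval and an open triangle at the level of 3 UMIs where none was counted. The circles of *Ltf*, *Camp*, and *Ngp* step down from bone marrow to blood to tendon, whereas those of *Mmp9* lie between 1390 and 1843 CPM.

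Of the 8 members, 6 were lower in blood than in bone marrow and 0 higher, where 24.1% of 8947 genes were lower and 11.8% higher, and the median log2 ratio was -2.36 over the members against -0.17 over all genes. From blood to tendon, 6 members were lower and 0 higher (17.8% and 13.6% of 6518 genes), with a median of -1.24 against -0.15. Between tendon and bone marrow, 7 were lower and 0 higher (33.3% and 16.5% of 8938 genes), with a median of -3.63 against -0.40. Blood cells enter both of the first comparisons, and bone marrow both the first and the last, so these counts share libraries. Few cells carried the step from blood to tendon, and its direction depended on the S100 share of the cells compared. In cells of neutrophil-like clusters with 20 to 30% of UMIs from the S100 genes, *Camp* was at 275 CPM in blood (133 cells) and 92.1 CPM in the tendon (130 cells), and *Ltf* at 217 and 36.9 CPM. With 30 to 40%, *Camp* was at 2101 CPM in blood (156 cells) and 9366 CPM in the tendon (20 cells), *Ltf* at 713 and 3266 CPM, *Ngp* at 2834 and 9161 CPM, and *Chil3* at 159 and 1424 CPM. The tendon was thus lower in the first range and higher in the second for *Camp* and *Ltf*. In blood, the 10% of Cxcr2-high cells with the most UMIs of a gene held 99.5% of those of *Camp*, 99.9% of *Ltf*, 98.9% of *Chil3*, and 94.0% of *Ngp*, whereas in bone marrow they held 32.7% of those of *Camp*. The tendon levels also rested on few cells. Its 20 cells with 30 to 40% held 1322 *Camp*, 461 *Ltf*, and 1293 *Ngp* UMIs. All 396 Cxcr2-high tendon cells held 1431, 502, and 1771. With every cell thinned to 1000 UMIs before gating, the log2 ratio of *Camp* from blood to tendon became 0.41, and 2 members were lower and 1 higher. This setting also changed which cells passed the gates, since a cell then needed a *Cxcr2* UMI among its 1000. Without cycling cells (71 of the Cxcr2-high cells of bone marrow, 1 of blood, and 0 of the tendon), the log2 ratio of *Camp* was -3.65 from bone marrow to blood and -1.29 from blood to tendon, and 6 and 5 members were lower.

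The share of cells with a transcript showed the same order for most members. With cells thinned to 1000 UMIs, which left out 3, 0, and 4 Cxcr2-high cells of bone marrow, blood, and tendon, *Camp* was found in 80.1% (77.1 to 82.8%), 8.18% (5.63 to 11.4%), and 3.06% (1.59 to 5.29%) of cells. At the cells' own depth these shares were 92.4%, 20.3%, and 5.30%. *Ltf* was found in 71.9%, 6.33%, and 1.79% of thinned cells, *Ngp* in 89.0%, 23.2%, and 9.18%, and *Chil3* in 54.0%, 3.69%, and 4.08%. *Cd177* was found in 60.8%, 22.4%, and 7.65%, and *Mmp8* in 68.3%, 58.3%, and 35.0%. *Lcn2* was still found in most cells of each site (99.1%, 85.2%, and 70.2%), as was *Mmp9* (69.9%, 81.0%, and 69.1%). Lymphocytes, which should lack *Camp*, were taken as a gauge of background. *Camp* was found in 5.36% of thinned B-like cells in bone marrow (median 5194 UMIs per cell, 42.9% at their own depth) and 0.28% of thinned T-like cells in blood (median 8879 UMIs). In the tendon, *Camp* was found in 0.039% of 2586 thinned monocyte/macrophage-like cells (median 11917 UMIs, 1.06% at their own depth), and the tendon share of Cxcr2-high cells, though low, lay above this background.

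Among Cxcr2-high cells, the level of *Cxcr2* itself differed between sites, at 592 CPM for bone marrow, 1530 CPM for blood, and 1099 CPM for tendon cells. S100-high cells were therefore also compared at like *Cxcr2* levels. In bone marrow, the *Cxcr2* strata were below 100, 100 to 500, 500 to 1000, 1000 to 2000, and at least 2000 CPM (418, 367, 169, 184, and 56 cells). *Camp*, *Ltf*, and *Chil3* were lower in the last stratum than in the first. *Camp* went from 35816 and 36553 to 17643, 4328, and 220 CPM, and *Ltf* rose from 4831 to 10027 CPM and then went to 7441, 1961, and 106 CPM. *Chil3* went from 5457 and 4648 to 1235, 171, and 58.0 CPM. *Mmp8* ran the other way, from 51.8 to 912, 3231, 3585, and 3224 CPM, as did *Mmp9*, from 91.9 to 847, 2206, 2338, and 2214 CPM. *Lcn2* stayed within a narrower range (11452, 17848, 14957, 9230, and 5478 CPM), as did *Cd177* (576, 1008, 1105, 916, and 525 CPM). Cells at the top of the *Cxcr2* range in bone marrow thus held *Lcn2*, *Mmp8*, and *Mmp9* transcripts with few *Camp* and *Ltf* transcripts.

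For *Camp*, *Ltf*, and *Mmp9*, the same order was seen in blood, from 100 CPM of *Cxcr2* upward (20, 58, 183, and 118 cells). *Camp* went from 16488 to 3600, 238, and 10.2 CPM there, and *Ltf* from 5439 to 1904, 62.1, and 4.54 CPM, while *Mmp9* was at 1291, 1790, 1859, and 2052 CPM. In the tendon (74, 118, 157, and 47 cells from 100 CPM upward), *Camp* went from 3732 to 108 and 87.3 CPM and had no UMI in the top stratum, and *Mmp9* was at 1282, 1225, 1544, and 1500 CPM. *Mmp8* did not rise throughout at either site. It was at 1244, 1743, 1521, and 1507 CPM in blood and at 602, 739, 758, and 639 CPM in the tendon. One *Cxcr2* UMI is a large step in the shallow tendon cells, so strata there are coarse.

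**Figure D2:**
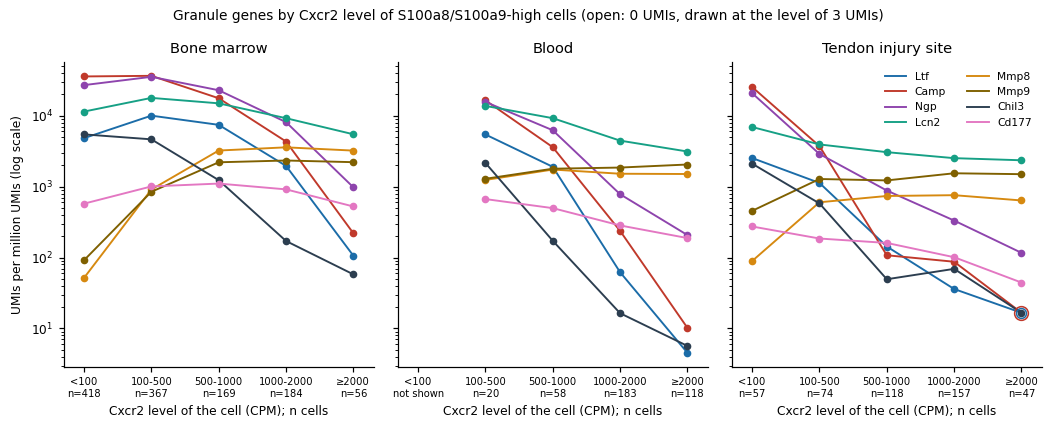
Level of each member (CPM, log axis) in S100-high cells grouped by their *Cxcr2* level in CPM, one panel for each site, with the number of cells under each group and open points, drawn at the level of 3 UMIs, where none was counted. *Camp*, *Ltf*, *Ngp*, and *Chil3* end lower in the last group than in the first at each site. However, *Camp* (by little), *Ltf*, and *Ngp* of bone marrow are highest in the second group, and *Chil3* of the tendon is not in order throughout. In the first tendon group, the 7 cycling cells held all 8514 UMIs of *Camp*, 848 of 849 of *Ltf*, and 6972 of 6973 of *Ngp*. *Mmp8* and *Mmp9* have their lowest values in the leftmost groups.

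In each *Cxcr2* stratum from 100 CPM upward, *Camp*, *Ltf*, *Ngp*, and *Chil3* stood below their bone marrow level in both blood and tendon. The strata are wide, and depth still differed between sites within them. At 100 to 500 CPM there were 20 cells in blood and 367 in bone marrow. In these, *Camp* was at 16488 and 36553 CPM and *Ltf* at 5439 and 10027 CPM. *Camp*, *Ngp* (15654 and 35390 CPM), and *Chil3* (2160 and 4648 CPM) were at least 2-fold lower in blood there. The other members differed by less than 2-fold. Of these, *Mmp8* (1244 and 912 CPM) and *Mmp9* (1291 and 847 CPM) stood above bone marrow, and *Ltf*, *Lcn2*, and *Cd177* below it. The share of all genes was not computed for this stratum. The tendon held *Camp* at 3732 CPM in that stratum (74 cells). At 500 to 1000 CPM of *Cxcr2* (169 bone marrow, 58 blood, and 118 tendon cells), *Camp* was at 17643, 3600, and 108 CPM and *Ltf* at 7441, 1904, and 143 CPM. At 1000 to 2000 CPM of *Cxcr2* (184, 183, and 157 cells), 7 of 8 members were lower in blood than in bone marrow and 0 higher, where 6.08% of 5770 genes were lower and 7.42% higher, with a median log2 ratio of -2.53 over the members against 0.07 over all genes. The log2 ratio was -4.98 for *Ltf*, -4.18 for *Camp*, -3.38 for *Ngp*, -3.38 for *Chil3*, -1.69 for *Cd177*, -1.24 for *Mmp8*, and -1.05 for *Lcn2*, and for *Mmp9*, at -0.33, it stayed under 2-fold. Between tendon and bone marrow in this stratum, 7 were lower and 0 higher (18.6% and 18.1% of genes), with a median of -2.71 against -0.06. From blood to tendon, 4 were lower and 1 higher (15.6% and 14.7%), the latter being *Chil3*, at 28 UMIs in blood and 50 in the tendon. At 2000 CPM or more (56, 118, and 47 cells), 6 members were lower and 0 higher in blood than in bone marrow (4.35% and 6.23% of genes), and 7 were lower and 0 higher in the tendon than in bone marrow (20.4% and 16.6%). Of 5 members with enough UMIs there, 2 were lower and 0 higher in tendon than in blood (21.2% and 13.1%). These strata were chosen after the data had been seen.

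Within bone marrow, 4 groups of cells ordered the members by stage. They were 106 azurophil-high cells, with at least 1% of UMIs from *Elane*, *Mpo*, *Prtn3*, and *Ctsg* and under 5% from the S100 genes, 385 cycling S100-high cells, with at least 0.1% of UMIs from 12 cell cycle genes, 104 non-cycling Cxcr2-low cells, and 705 non-cycling Cxcr2-high cells. Median depth differed between them (55222, 38890, 23217, and 17591 UMIs per cell). The cycling cells still carried azurophil transcripts, with *Elane* (neutrophil elastase) at 3581 CPM against 7343 CPM in the azurophil-high cells and *Mpo* (myeloperoxidase) at 681 against 3421 CPM.

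*Ltf*, *Camp*, *Ngp*, and *Lcn2* were within 2-fold of their highest level by the cycling stage. *Ltf* was at 4.20 CPM in azurophil-high cells and at 4677, 8616, and 7987 CPM in the 3 groups that follow. *Camp* was at 179, 35599, 39991, and 24157 CPM, and *Ngp* at 39.2, 27156, 34378, and 26029 CPM. *Lcn2* was at 213, 11122, 17137, and 15620 CPM. The highest value of these 4 genes was thus that of the non-cycling Cxcr2-low cells. *Chil3*, at 243, 5747, 5181, and 2365 CPM, was the member whose highest value fell in the cycling cells.

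*Mmp8* and *Mmp9* came later. *Mmp8* was at 9.92 and 24.4 CPM in azurophil-high and cycling cells, 244 CPM in non-cycling Cxcr2-low cells, and 2222 CPM in non-cycling Cxcr2-high cells. *Mmp9* had 1 UMI in the azurophil-high cells and was at 58.0, 440, and 1627 CPM in the other groups. *Cd177* was highest in the same last group (6.05, 598, 798, and 1011 CPM), but its levels in the S100-high groups lay within 2-fold of each other.

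**Figure D3:**
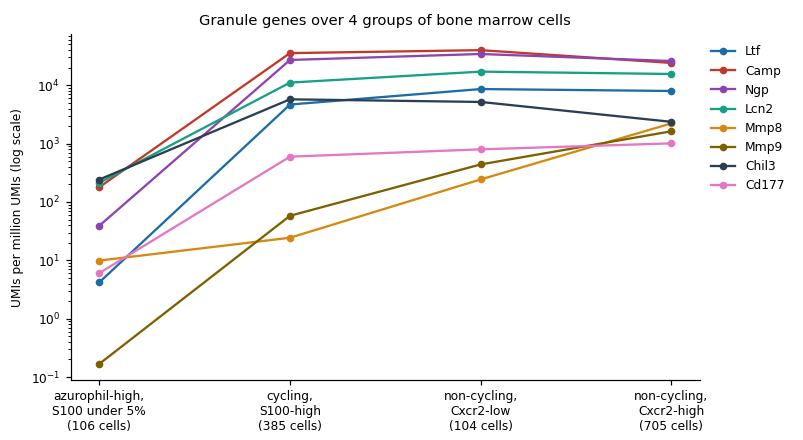
Level of each member (CPM, log axis) in 4 groups of bone marrow cells, from azurophil-high cells to non-cycling Cxcr2-high S100-high cells. *Ltf*, *Camp*, *Ngp*, *Lcn2*, *Chil3*, and *Cd177* make most of their climb between the first and second groups, whereas *Mmp8* and *Mmp9* climb through to the last.

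From the azurophil-high to the cycling cells, 8 of 8 members were higher (9.03% of 10226 genes), and 0 were lower (35.5%). These groups lie on either side of the S100 cut. Over Cxcr2-low cells, Spearman's rho of the members with *S100a8* ran from 0.19 (*Mmp8*) to 0.79 (*Ltf*). A rise with stage thus cannot be told apart from the gate in this step. From the cycling to the non-cycling Cxcr2-low cells, 2 were higher (4.61%), *Mmp8* and *Mmp9*, and 0 lower (20.3%). From there to the non-cycling Cxcr2-high cells, the same 2 were higher (8.81%) and 1, *Chil3*, was lower (19.5%). *Cebpe*, the gene for C/EBPε, was at 126, 683, 510, and 249 CPM over the 4 groups. Over all Cxcr2-high against all Cxcr2-low cells of bone marrow, *Mmp8* was 36.0-fold higher (1866 against 51.8 CPM) and *Mmp9* 15.2-fold higher (1395 against 91.9 CPM), and the other 6 members differed by less than 2-fold, so 2 were higher (10.9% of 10087 genes) and 0 lower (34.7%), with a median log2 ratio of 0.57 against -0.48 for all genes. These fold sizes depended on depth and gate. With cells thinned to 1000 UMIs before gating, the log2 ratio was 1.48 for *Mmp8* and 1.22 for *Mmp9*.

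Single Cxcr2-high cells of bone marrow showed a like arrangement. Over these 776 cells, Spearman's rho of CPM was 0.87 between *Camp* and *Ngp*, 0.86 between *Ltf* and *Ngp*, 0.86 between *Camp* and *Chil3*, and 0.76 between *Mmp8* and *Mmp9*. By contrast it was -0.54 between *Camp* and *Mmp8*, and *Camp* ran against *Cxcr2* (-0.82) while *Mmp9* ran with it (0.66). Cxcr2-high cells that held more *Camp* thus also held more *Ngp* and less *Mmp8*. Over the 418 Cxcr2-low cells of bone marrow rho was 0.60 between *Camp* and *Ngp* and -0.15 between *Camp* and *Mmp8*, but *Camp* did not run against *Cxcr2* there (0.12), and *Ltf* ran with *Cxcr2* (0.38) and with *Mmp9* (0.59). In 379 blood cells rho was 0.56 between *Camp* and *Ngp*, 0.31 between *Camp* and *Mmp8*, and 0.23 between *Mmp8* and *Mmp9*. In 396 tendon cells the same values were 0.37, 0.20, and 0.18. Cells of one correlation share a library and differ in depth, and most blood and tendon cells had no UMI of *Camp*, so the values are descriptions of these cells.

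Outside bone marrow, a handful of cycling S100-high cells held much of the *Camp*, *Ngp*, and *Ltf* RNA. In the tendon these were 7 cells (0.146% of the cells kept), each with 16748 to 34882 UMIs and with *Camp* from 14520 to 59947 CPM. They held 82.0% of all *Camp* UMIs of the tendon library, 79.4% of *Ngp*, and 61.7% of *Ltf*, against 13.5% of *Cd177*, 12.9% of *Lcn2*, 3.03% of *Chil3*, 0.044% of *Mmp9*, and 0% of *Mmp8*. In blood, 3 such cells (0.140%), each with 34578 to 64336 UMIs, held 38.3% of *Camp*, 27.2% of *Ngp*, and 26.8% of *Ltf*. Against the cycling S100-high cells of bone marrow, the log2 ratio in the 7 tendon cells was -0.02 for *Ltf*, 0.38 for *Camp*, 0.48 for *Ngp*, -0.04 for *Lcn2*, -0.34 for *Cd177*, and -0.67 for *Chil3*. In that comparison *Mmp9* was lower (-1.83), where 30.6% of 9340 genes were lower, and 0 members were higher (10% of genes). *Mmp9* had 3 UMIs in the 7 tendon cells, all in a single cell, so its level there lay at the floor of 3 UMIs. *Mmp8* had 0 UMIs against 24.4 CPM, which a floor of 3 UMIs (16.3 CPM in these cells) does not place 2-fold lower.

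None of these 10 cells shared a barcode with another library, and all had passed the doublet filter. Whether they were doublets was not tested further. All 7 tendon cells were Cxcr2-low and lay in a cluster named monocyte/macrophage-like. Of 12 markers of monocytes and macrophages, 5 had a UMI in them and summed to 863 CPM, against 1092 CPM in the cycling S100-high cells of bone marrow and 7452 CPM in the other 55 cells of that cluster. Of the 3 blood cells, 2 were Cxcr2-low and 1 lay in a neutrophil-like or progenitor-like cluster. The remaining 50 Cxcr2-low cells of the tendon, with a median of 3069 UMIs, held no *Cxcr2* or *Camp* UMI, 1 of *Ltf*, and 1 of *Ngp*, but *Lcn2* at 2196 CPM and *Mmp9* at 992 CPM. Including the 7 cells, the 57 Cxcr2-low cells of the tendon held *Mmp9* at 456 CPM against 91.9 CPM in those of bone marrow, so 1 member was higher (14.2% of 9459 genes), and *Chil3* and *Cd177* made 2 that were lower (28.2%). With the 7 cells included, Cxcr2-high tendon cells were lower than Cxcr2-low ones for 6 members and higher for 2 (21.7% and 16.7% of 4902 genes), and without them 0 were lower and 5 higher (9.96% and 14.4% of 4507 genes). The direction of *Ltf*, *Camp*, *Ngp*, *Lcn2*, and *Cd177* between the Cxcr2 groups of the tendon thus rested on these 7 cells.

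The cells behind each member's UMIs differed by site. In bone marrow, S100-high cells held most UMIs of each member, and cells that were neither S100-high nor of a neutrophil-like or progenitor-like cluster held at most 7.68% (*Chil3*). In blood, such other cells held 89.6% of *Chil3*, 20.7% of *Cd177*, 19.9% of *Mmp8*, and 5.95% of *Lcn2*, but 0.157% of *Camp*. In the tendon they held 95.3% of *Chil3*, 54.6% of *Mmp9*, 49.2% of *Lcn2*, 48.8% of *Cd177*, and 45.4% of *Mmp8*, but 4.23% of *Camp*. Read over the whole tendon library, *Chil3* was therefore mostly a transcript of cells other than those gated as neutrophils. For *Mmp9* the share of other cells was 48.6% without the 2 of them that held the most (424 and 376 UMIs), an omission chosen after the data had been seen.

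**Figure D4:**
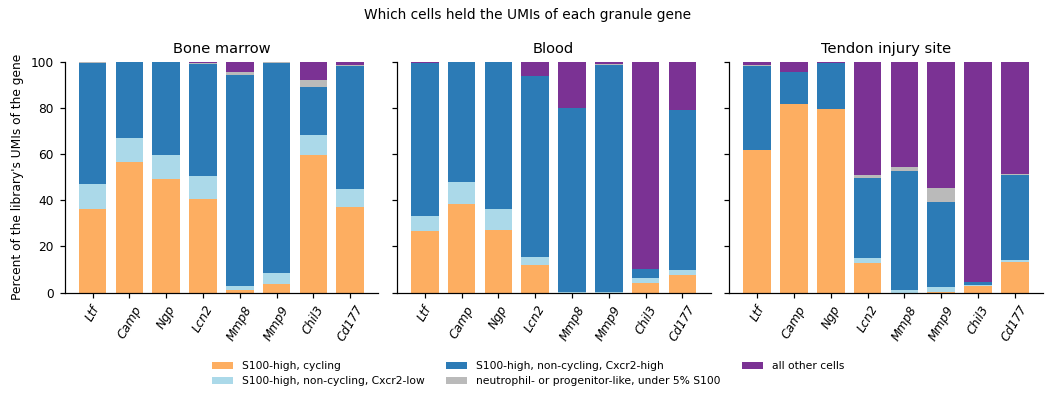
Percent of each member's UMIs in a library (vertical axis) held by cycling, non-cycling Cxcr2-low, and non-cycling Cxcr2-high S100-high cells, by neutrophil-like or progenitor-like cells under the S100 cut, and by all other cells, one panel for each site. The 7 cycling cells take 82.0% of the tendon *Camp* bar, and other cells take 95.3% of the tendon *Chil3* bar.

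Among cells under the S100 cut, clusters named from marker genes showed which other cells held these transcripts. Monocyte/macrophage-like cells held *Chil3* in all 3 sites, at 2146 CPM for 154 bone marrow cells, 2385 CPM for 326 blood cells, and 610 CPM for 2637 tendon cells. *Chil3* is also a known product of Ly6C-high monocytes and of alternatively activated macrophages. In bone marrow and blood these cells also held *Lcn2* (308 and 228 CPM), *Mmp8* (298 and 213 CPM), and *Cd177* (74.7 and 53.1 CPM), at 25.4, 32.8, and 9.21 CPM in the tendon. *Mmp9* had no UMI in the bone marrow cells, was at 3.68 CPM in those of blood, and reached 105 CPM in those of the tendon, while *Ltf*, *Camp*, and *Ngp* stayed below 1 CPM in blood and tendon. This class was made of 1 bone marrow cluster, 2 blood clusters, and 9 tendon clusters, so its cells are not of one make-up across sites. In the 2 tendon clusters with the most *Chil3* (1929 and 1651 CPM), *Mmp9* was at 11.2 and 5.91 CPM. Within the tendon, *Chil3* ran from 116 to 1929 CPM over monocyte/macrophage-like clusters, and *Mmp9* from 5.91 to 393 CPM. Single cells carried much of the *Mmp9* of its 2 highest clusters, and without the cell with the most UMIs in each (376 of 1490 and 424 of 544) they stood at 298 and 81.6 CPM instead of 393 and 358 CPM.

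*Lcn2* reached stromal and epithelial cells of the tendon. It was at 197 CPM in mesenchymal-like cells (696 cells), 146 CPM in keratinocyte-like cells (184 cells), and 57.5 CPM in endothelial-like cells (294 cells), against 0.65 CPM in dendritic-like cells (155 cells). By cluster it reached 656 CPM in 39 mesenchymal-like cells. Of the endothelial-like cells, 32 in 1 cluster were at 637 CPM and the other 262 at 9.22 CPM. *Camp* was at 15.5 CPM in the mesenchymal-like cells, with at least 1 UMI in 15.1% of them at their own depth, and 384 of its 401 UMIs there lay in 1 cluster of 376 cells, with up to 70 UMIs in a cell. *Ngp* was at 0.27 CPM in the mesenchymal-like cells.

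RNA free in the cell suspension would keep its genes in one ratio in every class of a library, so the members were also set against the S100 genes. *Camp* stood at 106 UMIs per 1000 *S100a8* and *S100a9* UMIs in B-like cells of bone marrow (72.8 CPM). In dendritic-like cells there it stood at 110 (65.5 CPM), and in basophil/mast-like cells at 73.0 (25.5 CPM). *Lcn2* was at 18.1, 56.8, and 127 per 1000 S100 UMIs in the same classes, so it did not keep one ratio over them. Whether the UMIs of these classes were free RNA was not tested. In the mesenchymal-like cells of the tendon, *Camp* was at 174 and *Lcn2* at 2213 per 1000 S100 UMIs, whereas over the tendon monocyte/macrophage-like cells *Camp* was at 2.44 and *Lcn2* at 72.8. *Chil3* was at 1746 per 1000 S100 UMIs in monocyte/macrophage-like cells of the tendon and at 1036 in those of blood, against 8.94 in T-like cells of blood.

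**Figure D5:**
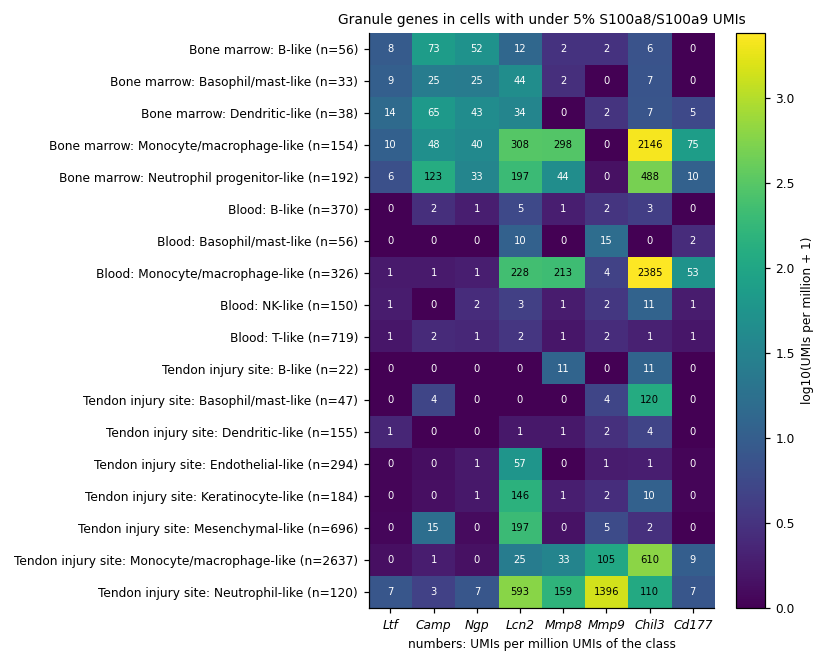
Level of each member (columns, CPM, printed in each field and coloured as log10 of the level plus 1) in classes of cells under the S100 cut (with their site and number of cells). *Chil3* stands out in monocyte/macrophage-like cells, *Lcn2* also in mesenchymal-like, keratinocyte-like, and endothelial-like cells of the tendon, and *Ltf* and *Ngp* no higher than 6.90 CPM in any class of blood or tendon.

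A further 120 tendon cells of neutrophil-like clusters lay under the S100 cut, with a median of 2387 UMIs. They held *Mmp9* at 1396 CPM, *Lcn2* at 593 CPM, and *Mmp8* at 159 CPM, with 1 UMI of *Camp*. Their *Mmp9* level was close to the 1390 CPM of the Cxcr2-high cells of the tendon.

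The other granule genes did not share one course from bone marrow to tendon. All 4 azurophil genes were lower in blood than in bone marrow. Of 15 other specific, gelatinase, secretory, or membrane genes with enough UMIs, 5 were lower and 1 higher, where 24.1% of all genes were lower and 11.8% higher, with a median log2 ratio of -0.18 against -0.17 for all genes. *Fcnb* (ficolin B) was at 287, 11.0, and 2.20 CPM in Cxcr2-high cells of bone marrow, blood, and tendon, and *Cybb*, the gene for a subunit of the phagocyte oxidase held in specific granules, at 1568, 191, and 124 CPM. Both thus ran with *Ltf* and *Camp*. From blood to tendon, 3 of the 15 were lower and 5 higher (17.8% and 13.6% of all genes), among the latter *Adam8*, a metalloproteinase (119, 229, and 605 CPM over the 3 sites), *Fpr1*, a formyl peptide receptor (124, 215, and 438 CPM), and *Slc11a1*, a metal transporter of gelatinase granules (29.99, 85.3, and 182 CPM). *Hp* (haptoglobin), a specific granule protein, was at 2142, 2741, and 1645 CPM and passed 2-fold in neither step.

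Of 6 regulators of granule genes, 2 were lower and 1 higher in blood than in bone marrow (24.1% and 11.8% of all genes), and of 5 with enough UMIs 1 was lower and 2 higher in the tendon than in blood (17.8% and 13.6%). *Cebpe* was at 321, 30.01, and 27.0 CPM in Cxcr2-high cells of bone marrow, blood, and tendon. *Cebpb*, which encodes the C/EBP factor of emergency granulopoiesis, was at 227, 878, and 3007 CPM. The 2 genes thus ran in opposite directions over the sites. Among partners of the members, *Timp1*, an inhibitor of metalloproteinases including gelatinase B, had 0 UMIs in Cxcr2-high cells of bone marrow and blood and 37 in the tendon (20.4 CPM), and *Timp2* was at 137, 274, and 305 CPM. *Timp1* was also among the leading genes of mesenchymal-like clusters of the tendon. Whether its UMIs in the Cxcr2-high cells were free RNA was not tested.

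Every gene was compared with each member over 22 groups of at least 50 cells (the Cxcr2-high and Cxcr2-low gates and the classes under the S100 cut of all sites, by Pearson's r of log2(CPM + 1) over 6469 genes). *Ngp* was the gene most like *Ltf* (r = 0.988) and most like *Camp* (r = 0.982), and *Ltf* the gene most like *Ngp*. *Camp* was not among the 3 genes most like *Ltf*, whereas *Itgb2l*, not a member, was among the 3 most like each of *Ltf*, *Camp*, and *Ngp*. *Lcn2* was most like *S100a8* (0.921), *Mmp8* like *Tarm1* (0.962), *Mmp9* like *Dhrs9* (0.969), and *Chil3* like *Trem3* (0.891). *Ltf*, *Camp*, and *Ngp* were thus not among the 3 genes most like *Mmp8* or *Mmp9*. All groups were formed by the S100 cut, which itself sets *S100a8* apart between them, so its likeness to *Lcn2* is partly built in. Groups of one library also share their depth and free RNA, so these values describe these groups alone.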

How the data were processed

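Cells of 3 unsorted 10x Genomics 3′ v3 libraries, 1 for each site, were analysed, and other data of the study were not analysed here. The authors deposited raw counts of UMIs without normalization. Per the file headers they ran Cell Ranger 5.0.1, and the submitters' processing notes name mm10. Their annotation release is not stated in those sources, so positions of genes were looked up by Ensembl identifier in GENCODE M21 (GRCm38). Counts of *Chil3* could share reads with its paralog *Chil4*, which had at most 8 UMIs in any gated group.

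Cells under 200 detected genes or over 20% mitochondrial UMIs were dropped, which left out 15, 57, and 651 cells of bone marrow, blood, and tendon. Scrublet in scanpy 1.11.5 scored doublets, and the highest-scoring cells were removed at 0.8% per 1000 cells (27, 38, and 198 cells). Clusters came from leidenalg 0.10.2 at a resolution of 1 on 2000 variable genes, 30 principal components, and 15 neighbors. Members, the other listed genes, *S100a8*, *S100a9*, *Cxcr2*, *Chil4*, and mitochondrial genes were first taken out of the variable genes. A cluster was named from fixed marker lists if at least 3 markers stood among its 100 leading genes, with a margin of at least 2 over the next cell type. This naming rule was chosen with the clusters in view. The members and gene lists were chosen with earlier results of these data known, and the text names the members, fixed lists of other granule genes, regulators, and partners, and genes from the 3 most like each member, which are not reported here for *Cd177*.

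Group sums of UMIs were scaled by the group's total to 1000000 (CPM). Levels have exact Poisson intervals, shares Clopper-Pearson intervals, and ratios intervals from the exact binomial split of UMIs, all at 95% and for counting error only. Genes with at least 20 UMIs over both groups were compared. No p-value was computed with 1 library per site, and cells did not serve as replicates. Alternatives changed the gates, depth, filters, weights, and clustering. Scripts in Python 3.11.15 (numpy 2.4.6, scipy 1.17.1, pandas 2.3.3) were checked on simulated data.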

Additional observations from a re-analysis of the deposited data

Results flagged for a closer look

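In bone marrow and in the tendon, 4 members differed in opposite directions between Cxcr2-high and Cxcr2-low S100-high cells, and these differences between sites were not tested, since there was 1 library for each. The log2 ratio of Cxcr2-high to Cxcr2-low cells was 0.71 in bone marrow and -3.20 in the tendon for *Ltf*, 0.023 and -4.42 for *Ngp*, 0.44 and -1.23 for *Lcn2*, and 0.79 and -1.07 for *Cd177*. Without the 7 cycling cells of the tendon, which were all Cxcr2-low, the tendon values became 5.38 for *Ltf*, 7.203 for *Ngp*, 0.42 for *Lcn2*, and 1.98 for *Cd177*, the first pair of which rest on 1 UMI each in the 50 remaining Cxcr2-low cells. The Cxcr2-low groups were also unlike. In bone marrow 314 of 418 such cells were cycling, at a median of 36672.5 UMIs, against 7 of 57 in the tendon, at 3290 UMIs. The 50 other tendon cells had no *Cxcr2* UMI, which at their depth may be a missed transcript.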

How the results depend on the processing

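No paired analysis was possible because each site had 1 library. Over the 4 main comparisons, 548 finite alternative log2 ratios of members were computed, of which 190 stayed within the counting interval of the reported value and 355 moved beyond it. The other 3 changed the sign of a called difference, all from blood to tendon, where *Camp* became 0.41 with no Cxcr2 gate and 0.41 with cells thinned to 1000 UMIs and *Ngp* became 0.042 with no Cxcr2 gate. From blood to tendon, the number of lower members was 2 with any *Cxcr2* UMI, with no Cxcr2 gate, and with thinned cells, against 6, and 1 was higher with thinned cells, at 1000 to 2000 CPM of *Cxcr2*, and at 2000 CPM or more (*Chil3* with 3 and 5 UMIs there, counted here without the minimum of 20 UMIs), against 0. From bone marrow to blood, 1 was higher with no Cxcr2 gate. Between tendon and bone marrow, no alternative moved the counts beyond 1.5 times. Within bone marrow, the number lower in Cxcr2-high cells was 2 at 300 CPM of *Cxcr2* and with thinned cells, and 1 with equal weight for every cell, in neutrophil-like clusters alone, and without cycling cells, against 0, and 4 were higher after centring on the median of all genes, against 2. With a cycling cut of 0.2%, 2 members had their highest level in cycling cells, 1 in Cxcr2-low, and 5 in Cxcr2-high cells, against 1, 4, and 3. The number of members found in at least 50% of cells was 5 in bone marrow with 500 UMIs per cell and 5 in blood without thinning. At a clustering resolution of 0.5, 9 of 96 pairs of a class and a member reached 50 CPM, against 17 of 128. The size of the ratios moved as well. Within bone marrow, the log2 ratio of Cxcr2-high to Cxcr2-low cells ran from 1.48 with thinned cells to 5.98 with any *Cxcr2* UMI for *Mmp8*, against 5.17. For *Mmp9* it ran from 1.22 to 4.86 with the same settings, against 3.92. From bone marrow to tendon, *Camp* ran from -7.20 at 300 CPM of *Cxcr2* to -2.75 with no Cxcr2 gate, against -5.07. At 2000 CPM or more, *Camp* and *Ltf* had 0 UMIs in the tendon, so that setting gave no finite ratio and is not in the range. The cause of these shifts was not tested. The gates at 1000 to 2000 and at 2000 CPM and the omission of cycling cells were chosen after seeing the data. Depth limits the tendon most, with 1817717 UMIs in its Cxcr2-high cells against 15472065 in bone marrow, and 3 counts over the group there are the least that a 0 can be told from.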
